A study of Triticum aestivum with 32 samples.

Results

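Salt and drought applied together to bread wheat were compared with the untreated control in flag leaf RNA. The comparison used 8 of the 32 libraries of a study of single and combined stresses, 4 from plants given salt plus drought and 4 from control plants, assigned by the treatment in their source names. The study asked how the transcriptome of the flag leaf adjusts to salt, drought and heat, alone and in every combination. All plants were potted Stettler, a Canadian red spring wheat cultivar, treated from Feekes stage 8 with 8 pots per treatment. Salt plus drought plants were watered with sodium chloride solutions of 20, then 40 and finally 80 mM to only 40% of field capacity. Control plants received tap water to 100% of field capacity. For comparison, salt alone had the same solutions at 100% of field capacity, and drought alone had 40% of field capacity without added salt. These 4 treatments shared a greenhouse with 24 °C days and 18 °C nights. The triple stress and heat alone, used near the end, stood in another greenhouse that was warmed to 30 °C for part of the day, so heat and greenhouse cannot be told apart. The labels give 4 libraries per treatment but not which pot each came from.

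Salt and drought share an osmotic component, because both make water harder for the root to take up, and salt adds the toxicity of sodium and chloride ions that reach the leaf. Plants are known to answer both through the hormone abscisic acid, which closes stomata and switches on protective genes at the cost of photosynthesis and growth. The flag leaf is the uppermost leaf of the wheat stem and a main source of sugar for the grain. Gene models carry identifiers without names here, and a reference table of 155467 wheat genes on a later assembly matched 0 of them, so no function is given for any gene model and the tissue label was not checked against marker genes. The letters after TraesCS name the chromosome and the A, B or D subgenome, and an ending in LC marks a low confidence gene model.

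Expression is given in TPM, an abundance corrected for transcript length in which every library adds up to the same total, so each value is a share of the messenger RNA of its library. The 100 most abundant gene models took 24.0%, 17.8%, 21.5% and 23.8% of the TPM in the 4 salt plus drought libraries, against 22.2%, 23.6%, 33.5% and 22.1% in the 4 controls. Control replicate 3 therefore stood apart, and its gene models with at least 5 TPM lay at a median of -0.53 on the log2 scale against the other 3 controls. At least 1 TPM was reached by 50717 to 52953 gene models in salt plus drought libraries, and by 44106 in control replicate 3 and 50218 to 51289 in the other controls. The groups did not differ by exact two-sided permutation in the share of the top 100 (-3.54 percentage points, p = 0.371) or in gene models detected (2452.2 more, p = 0.114), where the smallest possible p was 0.0286. The read depth behind the values is unknown. Results below are therefore also given without control replicate 3 where it decides them.

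Salt plus drought changed 1151 of the 50934 gene models tested, 2.26% of them (limma, Benjamini-Hochberg adjusted p under 0.05). Of these, 646 were higher (1.27%) and 505 lower (0.991%) than in controls, and 285 and 294 changed at least 2-fold. Higher gene models had a median of 7.26 TPM under salt plus drought against 2.47 TPM in controls, and lower ones 2.86 TPM against 8.14 TPM. Their median changes were 0.94 and -1.10 on the log2(TPM + 1) scale, on which all log2 changes here are given and which makes them smaller than the plain ratio for scarce transcripts. In these bulk leaf samples fewer cells of a type and less RNA per cell cannot be told apart.

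The median over all tested gene models was itself shifted by 0.15 on the log2 scale, and the split of the calls moved with the scaling. Quantile normalisation, by which all libraries take on a common distribution of values, brought the median to 0.02 and the calls to 802 higher and 1202 lower. Both scalings called 471 of the 646 higher and 499 of the 505 lower gene models. Without control replicate 3 the counts were 292 higher and 490 lower, so the excess of higher over lower calls did not persist without that library. It was also reversed without salt plus drought replicate 2 (133 higher, 177 lower) or 3 (249 and 282). Without control replicate 2 (268 and 266) or salt plus drought replicate 1 (240 and 234) it was small. It was kept without control replicate 1 (356 and 282) or 4 (414 and 279) or salt plus drought replicate 4 (598 and 495). Of the original calls, 274 of the 646 higher and 397 of the 505 lower gene models were called again without control replicate 3.

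**Figure D1:**
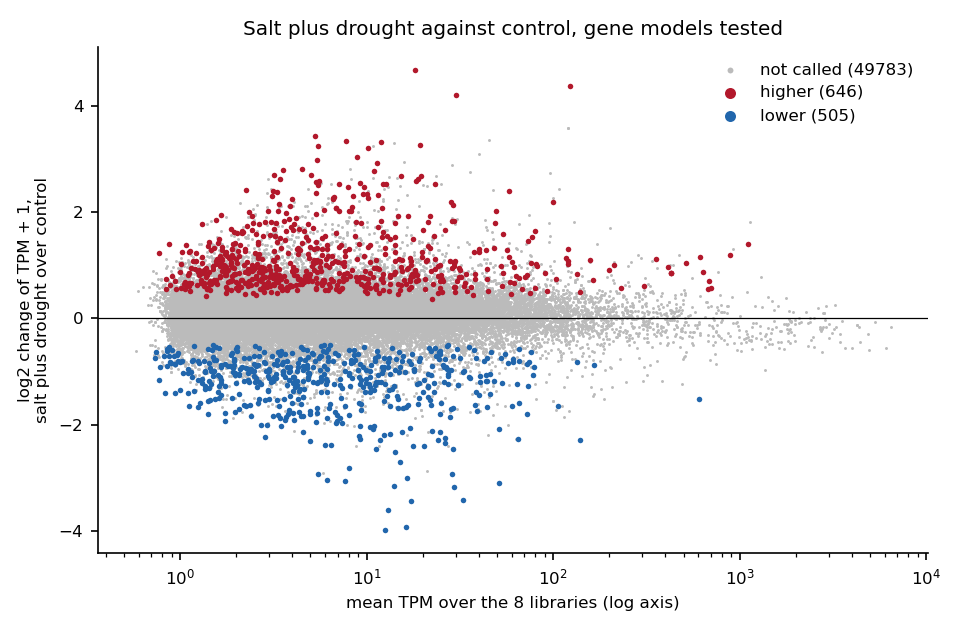
Mean TPM over the 8 libraries (horizontal log axis) against the log2 change of TPM + 1, salt plus drought over control (vertical axis), 1 point per gene model tested. The 646 called higher and 505 called lower lie over the whole range of abundance, and the grey cloud is centred slightly above 0, at a median of 0.15.

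The gene model with the largest rise was TraesCS6B02G383600. It had 56.8, 39.8, 29.9 and 17.3 TPM in the 4 salt plus drought libraries, against 0.39, 0.6, 0.27 and 0.11 TPM in the controls. All 4 stressed libraries lay far above controls that were close to 0 (log2 change 4.67 ± 0.55 SE, limma adjusted p = 1.31e-05). Gene models were tested with at least 1 TPM in at least 4 of the 8 libraries. This one passed through the stressed libraries alone, so part of its separation was set by that filter. TraesCS3D02G141100 had 166, 385, 237 and 151 TPM under salt plus drought, against 17.4, 9.13, 3.42 and 14.1 TPM in controls, where it was already measurable. Its groups were separated by a wide gap (log2 change 4.38 ± 0.79, adjusted p = 0.00273).

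TraesCS6A02G350700 had 18.2, 33.5, 31.8 and 7.64 TPM in stressed plants, against 1.5, 1.02, 0.92 and 0.90 TPM in controls. TraesCS2A02G510400 had 22.5, 36.7, 12.3 and 6.41 TPM, against 0.72, 0.69, 1.82 and 0.44 TPM in controls. In both, replicate 4 of salt plus drought was the lowest stressed library and still above every control, and the log2 changes were 3.33 ± 0.68 and 3.21 ± 0.60 (adjusted p = 0.00717 and 0.00362). The same library was the nearest to the controls in 9 of the 10 high confidence gene models with the largest rises. TraesCS2B02G521800 and TraesCS7D02G491200 rose by 2.97 ± 0.56 and 2.92 ± 0.58 on the log2 scale (adjusted p = 0.00401 and 0.00625).

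The remaining 4 of those 10 depended on single libraries. TraesCS6D02G333100 had 22.6, 20.3, 12.5 and 4.94 TPM against 0.93, 0.53, 0.09 and 0.23 TPM in controls (adjusted p = 0.0105), and its adjusted p was 0.0557 without salt plus drought replicate 2. TraesCS3A02G363700 and TraesCS2B02G490400 (adjusted p = 0.0276 and 0.0396) each missed the threshold with any 1 of the 8 libraries left out, except salt plus drought replicate 4. TraesCS1A02G374200 had 21.8, 16.2, 10.5 and 13.1 TPM under stress, while the controls were at 0, 0.14, 9.38 and 0.16 TPM. A single control, replicate 3, came close to the stressed range there, and the call (adjusted p = 0.0402) held only when that control was the library left out.

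Among low confidence gene models the largest rise was that of TraesCS3B02G203300LC. It had 85.8, 77.1, 67.6 and 6.07 TPM in salt plus drought, against 1.28, 1.53, 1.08 and 1.44 TPM in controls, with replicate 4 again far below the other 3 stressed libraries (log2 change 4.19 ± 0.82, adjusted p = 0.00529). TraesCS7B02G820100LC had 10.6, 15.1, 12.2 and 4.47 TPM under salt plus drought and was listed at 0 in all 4 controls (adjusted p = 0.00674). TraesCS7B02G378500LC had 8.49, 9.23, 7.39 and 8.65 TPM, close together, against 0 in 3 controls and 2.29 TPM in control replicate 4 (adjusted p = 0.0119).

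**Figure D2:**
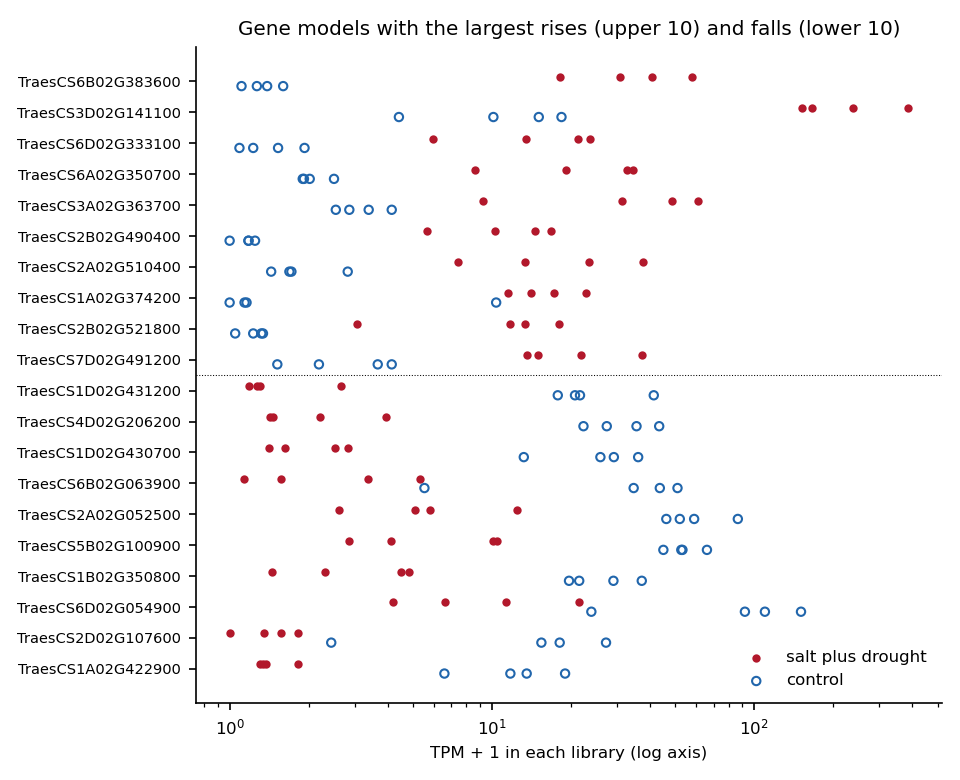
TPM + 1 in each library on a log axis for the 10 high confidence gene models with the largest rises (above the dotted line) and the 10 with the largest falls (below it). Filled points are salt plus drought, open points are controls, and in all 20 the filled and open points do not overlap, since the choice of these gene models required it.

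The largest fall was that of TraesCS1D02G431200. It had 0.27, 0.30, 0.19 and 1.66 TPM under salt plus drought, against 16.8, 40.4, 19.7 and 20.7 TPM in controls. It was close to 0 in 3 stressed libraries and low in the fourth (log2 change -3.99 ± 0.41 SE, limma adjusted p = 2.52e-06). TraesCS4D02G206200 had 1.22, 0.46, 0.42 and 2.96 TPM, against 21.3, 42.4, 34.6 and 26.4 TPM in controls (log2 change -3.92 ± 0.41, adjusted p = 2.52e-06). TraesCS1D02G430700, with 0.41, 0.62, 1.52 and 1.82 TPM against 28.2, 35.1, 12.2 and 24.9 TPM in controls, had the smallest adjusted p of the 20 (log2 change -3.61 ± 0.30, adjusted p = 1.001e-07).

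TraesCS2A02G052500 had 4.07, 1.62, 4.81 and 11.5 TPM in stressed plants, against 45.2, 58.0, 85.6 and 51.0 TPM in controls. TraesCS5B02G100900 had 1.86, 3.11, 9.46 and 9.13 TPM, against 52.3, 65.0, 44.0 and 51.7 TPM in controls. They fell by 3.41 ± 0.53 and 3.18 ± 0.61 on the log2 scale (adjusted p = 0.000584 and 0.00491). TraesCS1B02G350800, TraesCS2D02G107600 and TraesCS1A02G422900 fell by 3.16 ± 0.38, 3.06 ± 0.60 and 3.04 ± 0.32. The calls of these 8 gene models held with any single library left out.

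TraesCS6B02G063900 and TraesCS6D02G054900 also belonged to the 10 largest falls, and control replicate 3 was their lowest control. The first had 0.13, 4.30, 0.57 and 2.37 TPM under salt plus drought, against 33.7, 42.7, 4.53 and 50.0 TPM in controls (adjusted p = 0.0302). The second had 5.65, 10.3, 3.20 and 20.6 TPM, against 91.2, 109, 22.9 and 150 TPM in controls (adjusted p = 0.0268). In both, replicate 3 of the controls came close to the highest stressed library, and the call was kept only when control replicate 3 or salt plus drought replicate 4 was the library left out. Of the low confidence falls, TraesCS4D02G281900LC had 0.43, 0, 0.15 and 0.72 TPM, against 7.51, 5.72, 2.93 and 5.25 TPM in controls, and its call held in every such fit (adjusted p = 0.00104). TraesCS5D02G145100LC and TraesCS6B02G660900LC (adjusted p = 0.0446 and 0.0238) missed the threshold without control replicate 3, with adjusted p-values of 0.0923 and 0.0743, and without several of the other libraries.

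Changes also reached very abundant transcripts. Among the 1144 tested gene models that averaged 100 TPM or more, 27 were higher (2.36%) and 5 lower (0.437%). The 6240 between 20 and 100 TPM had 90 higher (1.44%) and 97 lower (1.55%). Over all tested gene models the shares were 1.27% and 0.991%. TraesCS3A02G148700 was the most abundant of those that rose, with 1800.05, 1750.4, 1589 and 1264 TPM under salt plus drought, against 735, 469, 566 and 659 TPM in controls (log2 change 1.40 ± 0.21, adjusted p = 0.000438). TraesCS3D02G156500 had 1344, 1269, 1244 and 1043 TPM, against 623, 452, 509 and 578 TPM in controls (log2 change 1.18 ± 0.21, adjusted p = 0.0025). The lowest stressed library of each was still well above its highest control.

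Of abundant gene models that fell, TraesCS5D02G181600 showed the clearest separation. It had 37.9, 24.6, 64.8 and 71.0 TPM under salt plus drought, against a narrow 227, 243, 220 and 220 TPM in controls (log2 change -2.29 ± 0.27, adjusted p = 1.31e-05). TraesCS5A02G381800LC had 365, 221, 322 and 284 TPM, against 953, 429, 1402 and 871 TPM in widely spread controls (log2 change -1.52 ± 0.34, adjusted p = 0.016). Its adjusted p was 0.0685 without control replicate 3 and 0.0864 without salt plus drought replicate 2. TraesCS2D02G094200 fell by 0.88 ± 0.21 (adjusted p = 0.0214) and missed the threshold without control replicate 1 or 4 or salt plus drought replicate 1 or 2. TraesCS7B02G148000 rose by 0.57 ± 0.15 (adjusted p = 0.0397), a call lost with any of the 8 libraries left out, after quantile normalisation and under median-of-ratios scaling.

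How alike the 4 stressed libraries were was examined by leaving out each in turn and reading the left-out library for the gene models that the other 3 called. The controls are the same in both steps, so the left-out library is not an independent test of the control side. With replicate 1 left out, all 240 higher and all 234 lower gene models had the same direction in it. For replicate 2 these were 133 of 133 and 177 of 177, for replicate 3 they were 247 of 249 and 282 of 282, and for replicate 4 they were 595 of 598 and 494 of 495. Among all tested gene models 61.15% to 75.5% were higher than the control mean in the left-out library. The size differed more than the direction: replicate 4 had median log2 changes of 0.68 and -0.78, where the other 3 libraries had 1.06 and -1.21. The gene models were called from the other 3, which favours a larger median in those. Replicates 1, 2 and 3 had medians of 1.03, 1.31 and 0.94 for rises, where the others had 1.14, 1.21 and 1.11. For falls they had -1.29, -1.53 and -1.14, where the others had -1.25, -1.32 and -1.23.

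Without salt plus drought replicate 4 the count was 1093, and without replicates 1, 2 and 3 it was 474, 310 and 531. Without control replicates 1 to 4 it was 638, 534, 782 and 693. A core of 272 gene models, 113 higher and 159 lower, was called in all 8 of these fits, and 269 of them also after quantile normalisation.

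For 4926 gene models (9.67%) all 4 salt plus drought libraries lay above all 4 controls, and for 1498 (2.94%) all lay below. The called gene models were almost all of this kind, 629 of the 646 higher and 481 of the 505 lower. Of the higher ones 158 had a control mean under 1 TPM, and of the lower ones 109 had a salt plus drought mean under 1 TPM. Over all 50934 tested gene models these were 2538 and 1217. Such gene models could pass the filter through the other group alone, so their separation is partly set by the filter. Among the described rises this holds for TraesCS6B02G383600, TraesCS6D02G333100, TraesCS2B02G490400, TraesCS2B02G521800 and TraesCS7B02G820100LC, for example. Among the described falls it holds for TraesCS1A02G422900 and TraesCS4D02G281900LC, for example.

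The calls were spread over the genome. The share called was 2.09% on the A subgenome, 2.25% on B and 2.40% on D, close to the 2.26% over all tested gene models, and it ranged over the chromosomes from 1.68% on 6A to 2.75% on 2A. The highest share, 3.10% of 806 gene models, was on sequence not placed on a chromosome. High confidence gene models were called at 2.45% and low confidence ones at 1.45%. Gene models with 1 annotated transcript were called at 2.37%, those with 2 at 2.12% and those with 3 or more at 1.58%. Copies of a gene on the 3 subgenomes can be nearly identical, and the division of reads among them is an estimate, which leaves the values of individual copies uncertain.

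Called gene models also occurred next to each other in the order of their identifiers. Tested high confidence gene models were ordered by the number in their identifier, with low confidence ones left out. In this order 6 runs of at least 3 neighbours called in the same direction were found, 3 higher and 3 lower, with 23 gene models in all. The longest ran from TraesCS1A02G422600 to TraesCS1A02G423100 on chromosome 1A and held 5 lower gene models. Its strongest member, TraesCS1A02G422900, had 0.34, 0.38, 0.30 and 0.83 TPM under salt plus drought, against 10.8, 18.0, 5.59 and 12.6 TPM in controls. TraesCS1A02G422700 and TraesCS1A02G422800 fell by 2.03 ± 0.27 and 2.01 ± 0.23 on the log2 scale (limma adjusted p = 6.68e-05 and 9.76e-06). The outer members were weaker, at -0.91 ± 0.25 for TraesCS1A02G422600 and -1.01 ± 0.24 for TraesCS1A02G423100 (adjusted p = 0.0463 and 0.0214). TraesCS1A02G422600 was called only in the fit without control replicate 3 among those that left out a library, and TraesCS1A02G423100 was not called with control replicate 2 or 3, or salt plus drought replicate 1, 2 or 3, left out.

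A second lower run lay on chromosome 1D with a close range of identifiers, from TraesCS1D02G431100 to TraesCS1D02G431700, and included TraesCS1D02G431200. TraesCS1D02G431100 had 0.04, 0.09, 0.06 and 0.27 TPM under salt plus drought, against 2.55, 2.18, 1.41 and 1.35 TPM in controls (log2 change -1.35 ± 0.18, adjusted p = 9.62e-05). The other 2 members, TraesCS1D02G431400 and TraesCS1D02G431700, fell by 0.86 ± 0.22 and 1.003 ± 0.27 (adjusted p = 0.0397 and 0.0446). TraesCS1D02G431400 was called only without control replicate 3 or salt plus drought replicate 4, and TraesCS1D02G431700 only without control replicate 1. Of the 24 tested high confidence gene models flanking this run, 12 on each side, 3 were called, all lower, and TraesCS1D02G430700 was among them. The others called, TraesCS1D02G427400 and TraesCS1D02G428800, had smaller log2 changes of -0.63 ± 0.17 and -0.60 ± 0.15. Over all tested high confidence gene models 2.45% were called. Whether the members on 1A and 1D are copies of each other was not tested.

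Of the 2 higher runs of 4, the one with the larger mean change came from sequence not placed on a chromosome. This run consists of neighbours by identifier only, as their physical order is not known. TraesCSU02G057100, its most abundant member, had 114, 112, 78.6 and 85.5 TPM under salt plus drought, against 12.5, 19.4, 29.0 and 13.1 TPM in controls. TraesCSU02G057200 had 24.4, 30.1, 14.4 and 17.6 TPM, against 2.75, 3.38, 4.69 and 1.21 TPM in controls. In all 4 members the stressed libraries lay above every control, with log2 changes of 2.34 ± 0.41, 2.40 ± 0.37, 2.52 ± 0.36 and 1.92 ± 0.39 from TraesCSU02G057000 to TraesCSU02G057300 (adjusted p = 0.00226, 0.000476, 0.000196 and 0.00701). These 4 calls held with each library left out. The other higher run of 4 lay on 3B (TraesCS3B02G062600 to TraesCS3B02G062900), with a mean log2 change of 0.97. No member of it kept its call through every fit that left out a library. Runs of 3 were a higher one on 6D (TraesCS6D02G333000 to TraesCS6D02G333200) and a lower one on 5B (TraesCS5B02G100900 to TraesCS5B02G101100). In these, only TraesCS6D02G333200 and TraesCS5B02G100900 kept their calls through every such fit.

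**Figure D3:**
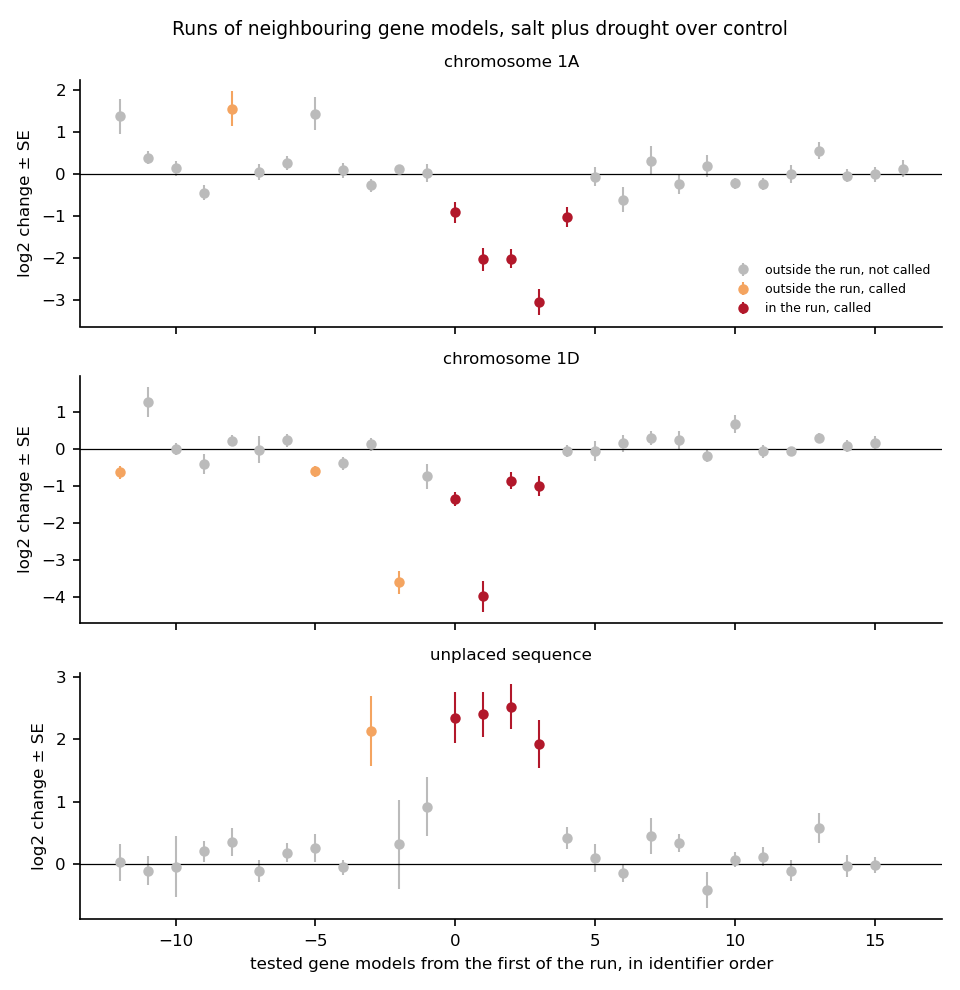
Log2 change ± SE, salt plus drought over control, of the run of 5 on 1A, the 2 of the 3 runs of 4 with the larger mean change, and the 12 tested high confidence gene models on each side, placed by the number of such gene models from the start of the run. The runs stand below 0 on 1A and 1D and above 0 on the unplaced sequence. Of their 24 flanking gene models 1, 3 and 1 were called, where 2.45% of all tested high confidence gene models were.

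The share of a gene's TPM held by each of its transcripts was tested for 7656 transcripts of 4420 gene models, and 11 transcripts of 6 gene models passed (0.144%, limma adjusted p under 0.05), with 629 at an unadjusted p under 0.05. Transcript TraesCS7D02G253100.2 was listed at 0 in all 4 salt plus drought libraries and held 17.3%, 26.0%, 23.9% and 11.5% of its gene in the controls (adjusted p = 0.034). The gene as a whole had 20.2, 21.4, 16.6 and 18.1 TPM under salt plus drought, against 14.3, 11.7, 10.2 and 17.4 TPM in controls. Transcript TraesCS6B02G503300LC.1 held 40.0%, 44.6%, 40.4% and 42.4% under salt plus drought, against 27.6%, 25.9%, 19.3% and 23.7% in controls (adjusted p = 0.034). These values did not overlap, but the calls were fragile. No transcript passed without control replicate 1, 3 or 4 or without salt plus drought replicate 1, 2 or 3, while 2 passed without salt plus drought replicate 4 and 22 without control replicate 2.

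The single stresses give the level from which the combination is read. All 3 comparisons share the control libraries, so their values are set side by side without a test. The 646 gene models higher in salt plus drought had median log2 changes of 0.94 in salt plus drought, 0.67 in salt alone and 0.46 in drought alone, where all tested gene models had 0.15, 0.05 and -0.18. The 505 lower ones had -1.10, -0.93 and -0.83. Both sets were chosen by their change in salt plus drought, which favours a larger median there. The order of the 3 medians therefore does not show a stronger effect of the combination. Salt alone against control gave 884 calls (1.74%), 316 higher (0.62%) and 568 lower (1.12%), and drought alone gave 884 (1.74%), 165 higher (0.324%) and 719 lower (1.41%). The counts rested on the scaling, and quantile normalisation gave 743 higher and 1291 lower in salt alone and 485 higher and 595 lower in drought alone. The excess of lower calls was thus kept in salt alone and became smaller in drought alone. Salt replicate 3 had an unusual composition, with 21.6% of its TPM in low confidence gene models against 9.24% to 9.83% in the other 3 salt libraries.

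Setting the combination against salt alone compares 40% with 100% of field capacity under the same salt solutions. Plants watered to 40% may also have received less of the solutions, so the salt dose need not be equal. Only 2 gene models passed (0.00393%), 1 lower (0.00196%) and 1 higher (0.00196%), with 3233 at an unadjusted p under 0.05 and a median standard error of 0.20 on the log2 scale. TraesCS6B02G262000 had 43.9, 45.8, 63.6 and 61.0 TPM under salt plus drought, against 131, 155, 122 and 144 TPM under salt alone (log2 change -1.36 ± 0.23, limma adjusted p = 0.0445). TraesCS2D02G515700LC had 2.20, 1.78, 2.60 and 2.03 TPM and was listed at 0 in all 4 salt libraries (adjusted p = 0.0125). The groups did not overlap for either, but TraesCS6B02G262000 missed the threshold with each of the 8 libraries left out, and TraesCS2D02G515700LC missed it without salt replicate 1 or 4 or salt plus drought replicate 1, 3 or 4. Both gene models were chosen for description after their values were seen. The low count does not show that salt plus drought and salt alone gave the same transcriptome. The other settings gave 0 to 9 calls.

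Against drought alone, which shows what salt added at 40% field capacity, 4306 gene models passed (8.45%), 4149 higher (8.15%) and 157 lower (0.308%) in salt plus drought. This count rested on the scaling and on single libraries. The median of all tested gene models was shifted by 0.32 on the log2 scale in TPM and by 0.04 after quantile normalisation, which gave 239 higher and 241 lower. The count was 1 without drought replicate 3 or without salt plus drought replicate 2, 20 without drought replicate 4, 101 without salt plus drought replicate 3, and 9134 without drought replicate 2. Without drought replicate 1 it was 1386, and without salt plus drought replicates 1 and 4 it was 1938 and 1995. Drought replicates 3 and 4 gave 33.2% and 31.4% of their TPM to the top 100 gene models, while drought replicates 1 and 2 gave 28.8% and 26.6%. The part of this composition in the calls was not tested.

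The combination can also be set against the sum of the single stress changes, where a departure is the log2 change in salt plus drought less those in salt alone and in drought alone. It was called for 79 gene models (0.155%), 71 positive (0.139%) and 8 negative (0.0157%), with 8945 at an unadjusted p under 0.05. This split rested on the scaling and the pseudocount. The median departure of all tested gene models was 0.28 on the log2 scale in TPM and 0.03 after quantile normalisation, which gave 60 positive and 42 negative, while median-of-ratios scaling gave 69 and 50 and a pseudocount of 0.1 TPM gave 2 and 3. Of the 71 positive ones 69 were lower in both single stresses than in controls, with median log2 changes of -0.99 in salt plus drought, -1.40 in salt and -1.42 in drought. All 8 negative ones were higher in both, with medians of 1.97, 2.18 and 2.27. In both sets the median change of the combination was smaller than that of either single stress. The controls enter a departure with a positive sign and both single stresses with a negative one, so the direction of the single stress changes is tied to that of the departure. The scale also sets a limit, since no gene model can fall below 0 TPM. For 36 of the 71 the sum of the single stress changes was a larger fall than one to 0 TPM, so any value in salt plus drought would have given a positive departure.

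TraesCS4D02G206200 is one of these 36. It had 1.22, 0.46, 0.42 and 2.96 TPM in salt plus drought, 0.08, 0.62, 0.80 and 0.31 TPM in salt, 0.13, 2.40, 2.65 and 3.98 TPM in drought and 21.3 to 42.4 TPM in controls. All 3 stress groups were far below the controls, and their ranges overlapped. Its departure was 3.97 ± 0.58 SE (adjusted p = 0.00446), of which 2.92 was set by the limit: its single stress changes sum to -7.88, and a fall to 0 TPM would be -4.96. TraesCS1D02G431200 had a departure of 3.61 ± 0.58 (adjusted p = 0.00722), of which 3.01 was set by the limit. That of TraesCS5D02G002500LC was 3.56 ± 0.77 (adjusted p = 0.047), with 0.86 set by it. TraesCS5D02G002500LC had 4.59, 6.5, 5.23 and 5.79 TPM in salt plus drought, against 28.2, 21.7, 5.49 and 20.4 TPM in controls, with control replicate 3 inside the stressed range, and it was not called between these groups (adjusted p = 0.171).

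In the other direction, TraesCS6B02G383600 had a departure of -4.22 ± 0.78 (adjusted p = 0.0189). It had 38.0, 9.86, 21.7 and 69.5 TPM in salt and 101, 19.0, 34.0 and 9.42 TPM in drought, ranges that hold all 4 salt plus drought values. TraesCS7B02G209600 had 9.59, 9.23, 12.4 and 7.03 TPM in salt plus drought, against 2.04, 0.77, 1 and 0.6 TPM in controls, while salt alone had 8.77 to 13.0 TPM and drought alone 7.79 to 26.3 TPM (departure -2.78 ± 0.43, adjusted p = 0.00506). The departure of TraesCS3D02G024700 was -2.58 ± 0.55 (adjusted p = 0.0422).

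The number of departures depended strongly on single libraries. It was 3868 without control replicate 3, of which 3767 were positive, 548 without salt replicate 2 and 264 without drought replicate 2. It was 16 without control replicate 4, 18 without salt plus drought replicate 4, 20 without control replicate 2 and 24 without drought replicate 1. It was 31 without salt replicate 3, the library of unusual composition, and 30 without salt replicate 1. Control replicate 1, salt replicate 4 and salt plus drought replicates 1 and 2 left out gave 48, 47, 45 and 41, and drought replicate 4 left out gave 137. The departures of TraesCS4D02G206200, TraesCS1D02G431200 and TraesCS7B02G209600 were called in each of these fits, though for the first 2 the limit at 0 TPM made them positive. Those of TraesCS3D02G024700 and TraesCS5D02G002500LC were each lost in more than 10 of them, and that of TraesCS6B02G383600 in 4, without control replicate 4, drought replicate 1, salt replicate 1 or salt plus drought replicate 4.

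Whether the changes recur under heat was read from the triple stress against heat alone, which adds salt plus drought in the warmed greenhouse and shares no library with the comparison above. It gave 8718 calls (17.1%), 7233 higher (14.2%) and 1485 lower (2.92%). Of the 646 gene models higher in salt plus drought, 595 (92.1%) were also higher in the triple stress than in heat alone, against 75.5% of all tested gene models, and 415 were called higher. Of the 505 lower ones, 463 (91.7%) were also lower, against 24.5% of all, and 312 were called lower. Their median log2 changes were 0.70 and -0.82, where all tested gene models had 0.25.

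The shift of the median came with an uneven composition of the heat libraries. Heat replicates 1 and 3 gave 35.9% and 32.3% of their TPM to the top 100 gene models, while heat replicates 2 and 4 gave 21.8% and 21.0%. After quantile normalisation the calls of the triple stress against heat were 4091 higher and 3873 lower. The same direction was then found for 566 of the 646 (87.6%, against 53.5% of all tested) and for 478 of the 505 (94.7%, against 46.5%). With both heat replicates 1 and 3 left out, a choice made after the data were seen, the TPM gave 582 (90.1%, against 54.9% of all tested) and 462 (91.5%, against 45.1%). The directions were thus much the same with and without these libraries, while the number of calls was not. The total of calls in TPM was 3696 without heat replicate 1, 4668 without heat replicate 3 and 4463, 5270, 6390 and 6947 without triple stress replicates 1 to 4. It was 9953 without heat replicate 2 and 12540 without heat replicate 4.

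**Figure D4:**
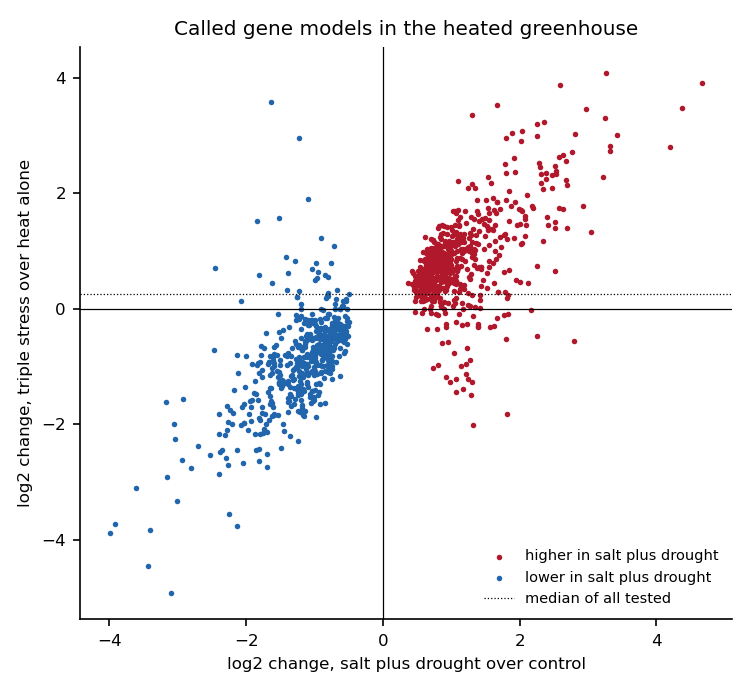
Log2 change of salt plus drought over control (horizontal axis) against log2 change of the triple stress over heat alone (vertical axis) for the 1151 gene models called in the first, with red for higher and blue for lower and the dotted line at the median of all tested gene models. Most points lie in the upper right and the lower left, 595 of 646 and 463 of 505, and a few stand far out on the other diagonal.

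A minority went the other way. The difference between the 2 changes was called for 125 gene models (0.245%), 77 positive (0.151%) and 48 negative (0.0942%), where median-of-ratios scaling gave 75 of each. The 125 included 21 of the 646 higher and 16 of the 505 lower ones. Of these 37, 36 had opposite signs in the 2 greenhouses. The change under salt plus drought enters the difference with a negative sign and that under the triple stress with a positive one. A called difference therefore favours opposite signs, and both directions in these 37 are tied to their call. In the triple stress against heat alone, 15 of the 21 and 10 of the 16 were called in the opposite direction. Of the 646 higher gene models 2.32% were called lower there, against 2.92% of all tested. Of the 505 lower ones 1.98% were called higher there, against 14.2% of all tested. Of the 88 differences in gene models not called under salt plus drought, 78 had opposite signs, which the call of a difference favours here too. The share with opposite signs over all tested gene models was not computed. Without each of the 16 libraries in turn the total of called differences was between 69 and 143. It was 73 without control replicate 1, 78 without control replicate 4, and 75, 77 and 76 without salt plus drought replicates 1, 2 and 4. It was 78 and 69 without triple stress replicates 3 and 4.

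The largest such difference among those 37, chosen after its values were seen, was in TraesCS5B02G408700LC. It had 32.6, 21.2, 34.1 and 25.8 TPM in salt plus drought, against 93.5, 71.5, 133 and 71.8 TPM in controls (log2 change -1.64 ± 0.26, limma adjusted p = 0.000864). In the warmed greenhouse it had 84.5, 58.2, 124 and 111 TPM in the triple stress, against 6.75, 8.11, 8.99 and 3.96 TPM in heat alone (log2 change 3.57 ± 0.26, adjusted p = 4.63e-09). Neither pair of groups overlapped, the directions were opposite, and the difference between the changes was 5.22 ± 0.37 (adjusted p = 2.15e-09). Its levels were 68.9 to 80.9 TPM in salt alone, 54.7 to 133 TPM in drought alone, 69.3 to 88.1 TPM in heat plus drought and 16.8 to 32.1 TPM in salt plus heat. Low values were thus found in salt plus drought, salt plus heat and heat alone, and the other 5 groups were higher without overlap.

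TraesCS5A02G381800LC, one of the abundant falls above, behaved likewise. It had 556, 440, 908 and 1050 TPM in the triple stress, against 268, 192, 301 and 196 TPM in heat alone, a log2 change of 1.56 ± 0.34 (adjusted p = 0.00362). The difference from its change of -1.52 under salt plus drought was 3.08 ± 0.49 (adjusted p = 0.00178). TraesCS6B02G262000, the gene model that passed against salt alone, fell by 0.91 ± 0.23 in salt plus drought against control (adjusted p = 0.0283), a call lost without control replicate 1, 3 or 4 or salt plus drought replicate 1 or 2. In the triple stress it had 152, 106, 133 and 118 TPM, against 45.3, 50.4, 44.3 and 81.8 TPM in heat alone (difference between the changes 2.13 ± 0.32, adjusted p = 0.000896).

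Another 3 gene models, on chromosomes 4A, 4B and 4D and also chosen after their values were seen, were opposite in the reverse sense. TraesCS4A02G116800 had 33.2, 30.4, 30.0 and 29.3 TPM in salt plus drought, against 12.6, 14.5, 18.5 and 18.0 TPM in controls (log2 change 0.92 ± 0.16, adjusted p = 0.002). It had 16.9, 20.2, 17.0 and 19.8 TPM in the triple stress, against 45.1, 47.1, 37.5 and 43.6 TPM in heat alone (log2 change -1.19 ± 0.16, adjusted p = 4.34e-05). In salt alone and drought alone it had 14.1 to 19.7 and 15.9 to 24.7 TPM, so salt plus drought exceeded every library of both single stresses. By the limma tests it was called against drought alone (adjusted p = 0.0372) but not against salt alone (adjusted p = 0.099). Its departure from the sum of the single stresses was not called (adjusted p = 0.257).

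TraesCS4B02G187600 had 34.2, 28.7, 32.1 and 33.0 TPM in salt plus drought, against 17.7, 13.3, 25.01 and 16.8 TPM in controls (adjusted p = 0.0126). TraesCS4D02G189000 had 53.1, 44.9, 49.5 and 43.5 TPM, against 27.1, 26.5, 31.5 and 28.1 TPM in controls (adjusted p = 0.0143). In both the stressed libraries were above all controls and above all libraries of salt alone and drought alone. By the limma tests both were called against drought alone (adjusted p = 0.0364 and 0.0444). Neither was called against salt alone (adjusted p = 0.761 and 0.717) or for a departure (adjusted p = 0.598 and 0.478). The differences between their changes in the 2 greenhouses were -1.78 ± 0.25 and -1.75 ± 0.23, after -2.11 ± 0.23 for TraesCS4A02G116800 (adjusted p = 0.000529, 0.000223 and 9.61e-06). The call of TraesCS4B02G187600 between salt plus drought and control was lost without control replicate 2 (adjusted p = 0.066), and that of TraesCS4D02G189000 without control replicate 2 or salt plus drought replicate 1. Both were also lost under median-of-ratios scaling, the call of TraesCS4B02G187600 after quantile normalisation as well, with the direction kept. Whether the 3 are copies of 1 gene was not tested.

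**Figure D5:**
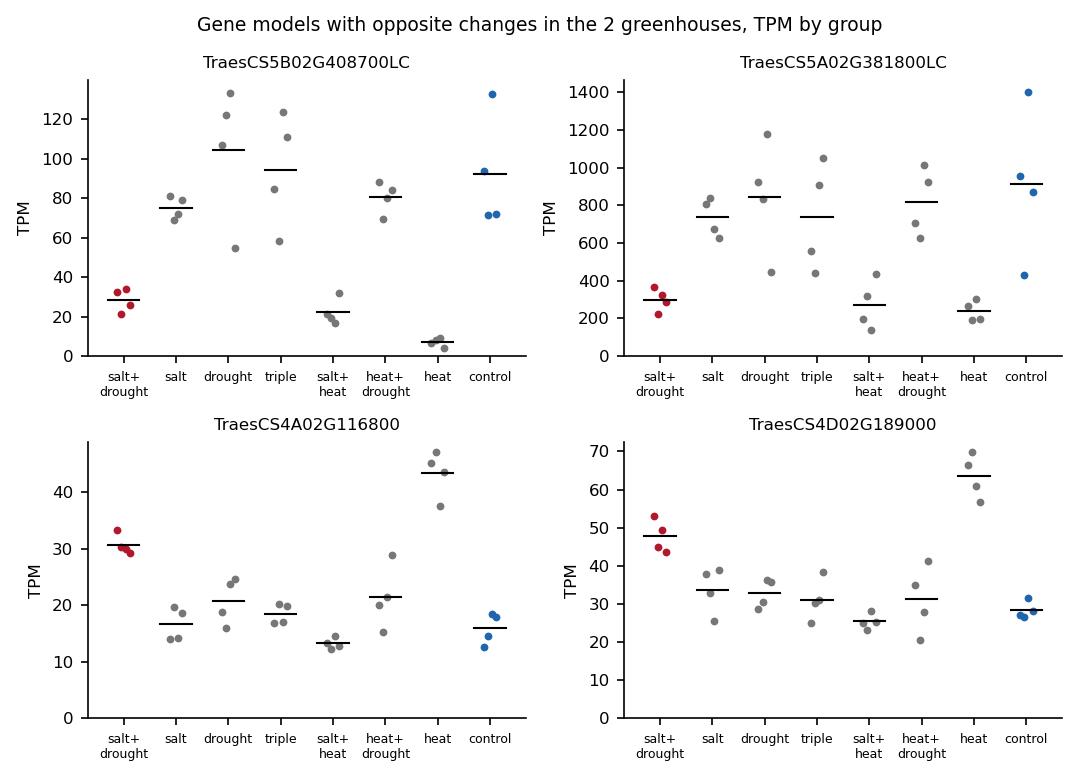
TPM in each library (points) and group means (black lines) of the 8 treatments for 4 gene models whose change under salt plus drought was opposite to that under the triple stress against heat alone. TraesCS4A02G116800 stands at 29.3 to 33.2 TPM in salt plus drought and 37.5 to 47.1 TPM in heat alone, above its 6 other groups, and TraesCS5B02G408700LC is low in salt plus drought, salt plus heat and heat alone.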

How the data were processed

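Flag leaf RNA was sequenced from 8 treatment groups of 4 libraries, and each library was placed by the treatment in its source name. Replicates of a group are described in the series text as biologically independent. Per the submitters' processing notes and the series text, CASAVA and Trimmomatic were used before alignment with STAR, and the deposited TPM were estimated by the authors with RSEM 1.3.3 on the IWGSC annotation. TPM keep no read depth, so no count model or counting interval was possible, and reads shared by near-identical copies were divided by estimation.

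TPM were summed over the transcripts of a gene model, 298774 transcripts giving 269428 gene models, and 50934 with at least 1 TPM in at least 4 of the 8 libraries were tested. Values were taken as log2(TPM + 1). A single linear model of 8 group means over all 32 libraries, with 24 residual degrees of freedom, was fitted in limma 3.58.1 (R 4.3.3), and its contrasts were moderated by eBayes with a mean-dependent prior (trend). Tests were two-sided with Benjamini-Hochberg adjustment over all gene models tested and a threshold of 0.05. Error values are standard errors from that model. Transcript shares were tested likewise on log2 of the transcript over the rest of its gene, each with 0.5 TPM added, for gene models of at least 5 TPM. The 3 library measures were compared by exact permutation over 70 splits, and their adjusted p-values were 0.343 to 0.8.

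Named gene models, among calls whose higher group averaged 5 TPM or more without overlap between groups, are the 10 high and 3 low confidence ones with the largest rise, the same numbers with the largest fall, and the 3 most abundant of each direction. Added to these are the 3 most positive and 3 most negative departures, the members of the 3 longest runs, with ties decided by the larger mean absolute log2 change, and 3 transcripts. Those described as chosen after their values were seen are outside this rule. The libraries and lists were chosen with earlier results of these data known. Tests of functional lists were planned and not run, since 0 identifiers could be named. Alternatives were other pseudocounts, filters and scalings, blocks, models of fewer groups and each library left out in turn. Quantile normalisation without control replicate 3, and directions without heat replicates 1 and 3, were added after seeing the data.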

Additional observations from a re-analysis of the deposited data

Results flagged for a closer look

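Of 110 groups of 4 libraries looked at, each a gene model described above or a library measure in salt plus drought or control, 10 had a library far from the other 3. Chance alone flags about 1 in 20 such groups. Control replicate 3 was the distant library in 5 of them. It had 44106 gene models at 1 TPM or more, against 50218 to 51289 in the other controls, 33.5% of its TPM in the top 100, against 22.1% to 23.6%, and 7.81% in low confidence gene models, against 9.39% to 9.51%. TraesCS1A02G374200 had 9.38 TPM in it, against 0 to 0.16 TPM, and TraesCS1A02G422800 had 2.24 TPM, against 5.55 to 6.05 TPM.

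Salt plus drought replicate 4 had 1.66 TPM of TraesCS1D02G431200, against 0.19 to 0.30 TPM in the other 3 stressed libraries, and 0.83 TPM of TraesCS1A02G422900, against 0.30 to 0.38 TPM. Salt plus drought replicate 2 had the most gene models detected, 52953, against 50717 to 51099. In controls, TraesCS1D02G431200 had 40.4 TPM in replicate 2, against 16.8 to 20.7 TPM, and TraesCS7B02G378500LC had 2.29 TPM in replicate 4 and was listed at 0 in the others.

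The change in the warmed greenhouse, triple stress against heat, differed from that of salt plus drought against control in 7 described gene models by the test of the difference itself (limma, adjusted over all gene models). The difference on the log2 scale was 5.22 for TraesCS5B02G408700LC, 3.08 for TraesCS5A02G381800LC and 2.13 for TraesCS6B02G262000. It was -2.11, -1.78 and -1.75 for TraesCS4A02G116800, TraesCS4B02G187600 and TraesCS4D02G189000. TraesCS2D02G515700LC had -2.13 (adjusted p = 0.0023), with 2.20, 1.78, 2.60 and 2.03 TPM in salt plus drought against 0, 0.68, 0.91 and 0.25 TPM in controls, and 0, 0.55, 0 and 0 TPM in the triple stress against 0.57, 1.92, 0.99 and 1.61 TPM in heat alone.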

How the results depend on the processing

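For salt plus drought against control the 1151 calls became 625 at 5 TPM (341 higher, 284 lower), 2004 after quantile normalisation (1202 lower), 2153 by median-of-ratios scaling (1481 lower), 579 at 2-fold (285 and 294), 582 with a block by title number (339 and 243), and 1342 (871 lower) by quantile normalisation without control replicate 3. Leaving out a library gave 310 to 1093 calls, 133 to 598 higher and 177 to 495 lower. Whether replicate numbers pair the libraries is not known. Same-numbered deviations correlated at -0.323, 0.205, -0.0808 and -0.231, within the -0.507 to 0.358 of differently numbered ones, which cannot decide it. A replicate block gave 1177 calls. Of 79 departures, 5 remained in number with a pseudocount of 0.1 TPM, 48 without a filter, 26 in a model of the 4 groups, 119 by median-of-ratios scaling, 125 without the 100 most abundant gene models and 166 with the replicate block (16 to 3868 with a library left out). Against salt alone the 2 calls became 0 at a pseudocount of 0.1 TPM or with the title block, 8 without a filter, 1 at 5 TPM or with the replicate block, 5 and 4 by the scalings, 9 in a model of the compared groups, and 0 to 2 with a library left out. Against drought alone the 4306 became 171 without a filter, 480 and 400 by the scalings, 401 without the 100 most abundant, 8 with the title block, 398 at 2-fold, and 1 to 9134 with a library left out. The triple stress against heat gave 5033 at 5 TPM, 2192 at 2-fold, 4032 in a model of the 2 groups and 3696 to 12540 with a library left out. The difference between the greenhouses gave 71 with the title block, 81 in a model of its groups and 69 to 143. Transcript shares gave 6 calls in the model of 2 groups and 0 to 22. The difference in low confidence share, 0.289 percentage points (exact permutation p = 0.8), ranged from -0.118, without control replicate 3, to 0.45. That in gene models detected ranged from 819 to 3213, with an exact permutation p of 0.0286 without control replicate 4. That in the top 100 share ranged from -4.63 to -0.83. No described gene model changed direction. The causes were not tested. Read depth is unknown.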
